A study of Homo sapiens with 2 samples.

Results

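Of the 45360 PAX-8 ChIP-Seq peaks listed for C18-3OH-treated foam cells, 7546 (16.6%, Wilson 95% interval 16.30% to 16.98%) were upstream peaks, whose centres lie 2 to 20 kb before a transcription start site. They were chosen by the class in the deposited list: each position was counted once, its first line was classed upstream and none of its lines was classed promoter. The other peaks were 3393 in promoters, 15837 in introns, 1016 in exons and 17568 between genes. The cells came from THP-1, a human monocytic leukemia line, in which PMA (160 nmol/L, 24 h) had induced a macrophage state and ox-LDL (48 h) had then induced lipid loading, and both libraries carried C18-3OH (3-hydroxystearic acid, 100 µM, 24 h) as the last treatment. The ox-LDL dose is 50 mg/mL in the sample labels and 50 µg/mL in the methods. Chromatin precipitated with PAX-8 antibody was the ChIP library, and chromatin sequenced without precipitation was the Input library. The methods speak of an independent repeat, but 1 ChIP library, 1 Input library and 1 list were analysed here, so that no value has a replicate and no comparison with untreated cells was possible. The depth of the libraries is unknown, the cell type could not be checked because no expression was measured, and all positions of peaks are on hg19.

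PAX-8 is a paired-box transcription factor best known for its part in the development of the thyroid and the kidney. Transcription factors bind both at promoters and at distal elements, which include enhancers, and in macrophages such elements are opened by the lineage factor PU.1 (SPI1) together with C/EBP and AP-1 factors. A distal peak is usually given to the gene with the closest start site, and this assignment is a convention and not a measured contact.

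Sequence is shown for the microRNA genes that led the upstream peaks by number, fold enrichment, p-value or tags, because these genes are identified by their short mature products. The sequences are RefSeq mature microRNAs of GRCh38.p14, 5′ to 3′, with the seed (bases 2 to 8) in capitals. Peak sequences are not shown.
hsa-miR-8071 (MIR8071-1 and MIR8071-2): cGGUGGACuggagugggugg
hsa-miR-6511b-5p (MIR6511B1): cUGCAGGCagaaguggggcugaca
hsa-miR-6511b-3p (MIR6511B1): cCUCACCAccccuucugccugca
hsa-miR-6769a-5p (MIR6769A): aGGUGGGUauggaggagcccu
hsa-miR-6769a-3p (MIR6769A): gAGCCCCUcucugcucuccag
hsa-miR-6735-3p (MIR6735): aGGCCUGUggcuccucccucag
hsa-miR-9901 (MIR9901): cGGUCGCCgcgguucgccgcc
No seed was shared between the different microRNAs of this group. MIR8071-1 and MIR8071-2 have the same mature sequence, so the product cannot tell which copy a peak accompanies. In GRCh38.p14 the mature sequence lies at chr14:105621151-105621170 for MIR8071-1 and at chr14:105640203-105640222 for MIR8071-2, both on the plus strand.

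Among protein-coding genes, NRARP had the most upstream peaks and PAX8 encodes the precipitated factor itself, so the start sites from which their peaks are counted are shown. Each run covers 250 bases before to 50 bases after the RefSeq start on GRCh38.p14, with every CG in capitals. It does not reach the peaks, which lie farther upstream.
NRARP, chr9:137302222-137302521, minus strand: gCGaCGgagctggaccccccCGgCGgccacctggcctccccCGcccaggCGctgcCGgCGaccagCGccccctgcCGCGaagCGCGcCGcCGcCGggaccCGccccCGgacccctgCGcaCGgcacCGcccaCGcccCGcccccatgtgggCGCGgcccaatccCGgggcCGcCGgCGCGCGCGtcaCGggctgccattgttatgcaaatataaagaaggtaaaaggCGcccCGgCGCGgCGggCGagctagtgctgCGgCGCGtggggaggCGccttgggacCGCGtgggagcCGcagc
PAX8, chr2:113278872-113279171, minus strand: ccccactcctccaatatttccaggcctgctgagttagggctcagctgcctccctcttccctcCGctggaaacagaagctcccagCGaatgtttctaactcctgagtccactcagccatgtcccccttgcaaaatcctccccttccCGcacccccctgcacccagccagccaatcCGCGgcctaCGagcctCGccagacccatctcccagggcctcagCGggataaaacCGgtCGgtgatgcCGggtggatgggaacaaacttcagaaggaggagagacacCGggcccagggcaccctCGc
The dinucleotide CG, which reads the same on both strands, occurs 46 times in the NRARP window and 13 times in the PAX8 window, and 96.0% of all RefSeq promoter windows hold it at least once. The 2 windows differ in base composition, with 78.3% G or C at NRARP and 62.0% at PAX8. A comparison of composition between all genes with and without an upstream peak is void, since a window could be matched for 53.9% of the 4560 protein-coding genes with such a peak.

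Counted by the distance in the first line of each peak, upstream peaks became slightly less frequent with distance from the start site. Positions in the promoter of another gene are left out of the class, and no expected count at each distance was computed. There were 480 peaks between 2 and 3 kb (exact Poisson 95% interval 438 to 525), 390 between 10 and 11 kb (352 to 431) and 401 between 19 and 20 kb (363 to 442). The 1418 peaks at 2 to 5 kb exceeded the 1181 at 17 to 20 kb by a ratio of 1.20 (exact conditional 95% interval 1.11 to 1.30). On the other side of the start site, peaks in introns and exons numbered 1047 at 2 to 5 kb and 539 at 17 to 20 kb, a ratio of 1.94 (1.75 to 2.16). This count ends with the gene body and leaves out positions that also meet the upstream definition, so the 2 ratios are not comparable as rates of decline. Upstream, the ratio was 1.17 (1.06 to 1.28) where the first gene codes for protein and 1.30 (1.08 to 1.57) where it is a long noncoding RNA gene. For all upstream peaks it was 1.498 (1.38 to 1.62) when the smallest distance over all lines was used. The median distance of all upstream peaks was 10289 bp, with quartiles at 5988 and 15105 bp. Close to the start site the promoter class was denser, with 668 peaks at 1 to 2 kb and 864 within 1 kb on the upstream side.

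**Figure D1:**
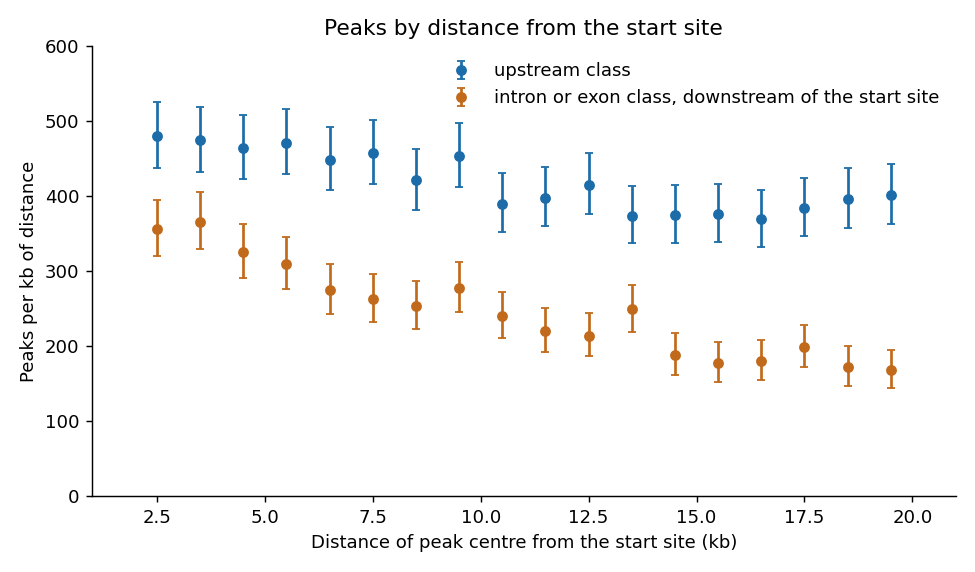
Number of peaks per kb (vertical axis) against the distance of the peak centre from the start site in kb (horizontal axis), for the upstream class and for intron or exon peaks at the same distance downstream. Points are counts and bars exact Poisson 95% intervals; the upstream class runs from 480 to 401 peaks per kb, and the downstream peaks from 356 to 168.

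The ends of the class are set by its rule. The 10 peaks nearest to the start site lie 2002 to 2013 bp before TIPARP, MAFF, ZNF85, FAM163B, PP2D1, MIR935, WDR36, PABPC1L, SBF1P1 and LINC00327. TIPARP, an ADP-ribosyltransferase gene, has its peak at 2002 bp with 12 tags and a fold enrichment of 7.35, and DUOX1, an NADPH oxidase gene whose peak lies at 2000 bp with 11 tags and a fold enrichment of 6.49, is already in the promoter class. The 10 farthest lie 19969 to 20000 bp before IFNAR1, KIF26A-DT, PLEKHF2, XYLT2, LINC02312, ACTN2, CCDC166, C8orf33, TAPT1-AS1 and KCNK16. IFNAR1, a subunit of the type I interferon receptor, has its peak at 20000 bp with 12 tags and a fold enrichment of 8.99, while TPD52, at 20011 bp with 16 tags and a fold enrichment of 6.04, is intergenic.

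The upstream class does not mean that a peak lies outside genes. Of the 7546 peaks, 1759 (23.3%, 22.4% to 24.3%) had their centre inside a listed transcript of another gene, 528 inside a longer listed transcript of the gene they were assigned to, and 2277 (30.2%) inside a transcript of either kind. Transcripts are listed only for genes with a peak, so these are lower limits. In turn, 0 of 15837 intron peaks, 0 of 1016 exon peaks and 0 of 17568 intergenic peaks had a listed start site 2 to 20 kb downstream, so a position that met both definitions was classed upstream. The share inside another gene was 19.6% (18.2% to 21.2%) at 2 to 8 kb, 24.68% (23.02% to 26.43%) at 8 to 14 kb and 26.3% (24.5% to 28.1%) at 14 to 20 kb. The genes that held most upstream peaks of their neighbours were EXD3 and PAX5, with 6 each. PAX5, another paired-box gene and a B-cell factor, was named after its value was seen, as was EXD3, an exonuclease-domain gene. Just beyond the class, at 20 to 21 kb before the assigned gene, 154 intergenic peaks were listed against 401 upstream peaks in the last kb inside it. Beyond the border peaks inside transcripts carry the intron or exon class, and the part of this in the step was not tested.

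No difference in fold enrichment between upstream peaks and promoter or intergenic peaks was detectable with these numbers. A fold enrichment of at least 10 was reached by 365 upstream peaks (4.84%, 4.38% to 5.34%), where 4.63% of all peaks reached it. The share was 5.04% in promoters, an upstream minus promoter difference of -0.20 percentage points (Newcombe 95% interval -1.12 to 0.65), and 4.52% in intergenic peaks within 100 kb of a start site, a difference of 0.32 (-0.30 to 0.95). Both intervals include 0, which does not show that the classes are alike. The other measures set promoters apart. A p-value score of at least 80 was reached by 4.53% of upstream peaks against 6.19% of promoter peaks, a difference of -1.66 points (-2.63 to -0.75). At least 20 tags were counted in 13.9% of upstream peaks and 17.8% of promoter peaks, a difference of -3.88 points (-5.41 to -2.40). Intron peaks stood lower than upstream peaks on the p-value score, with 3.86%, a difference of 0.67 points (0.13 to 1.25).

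**Figure D2:**
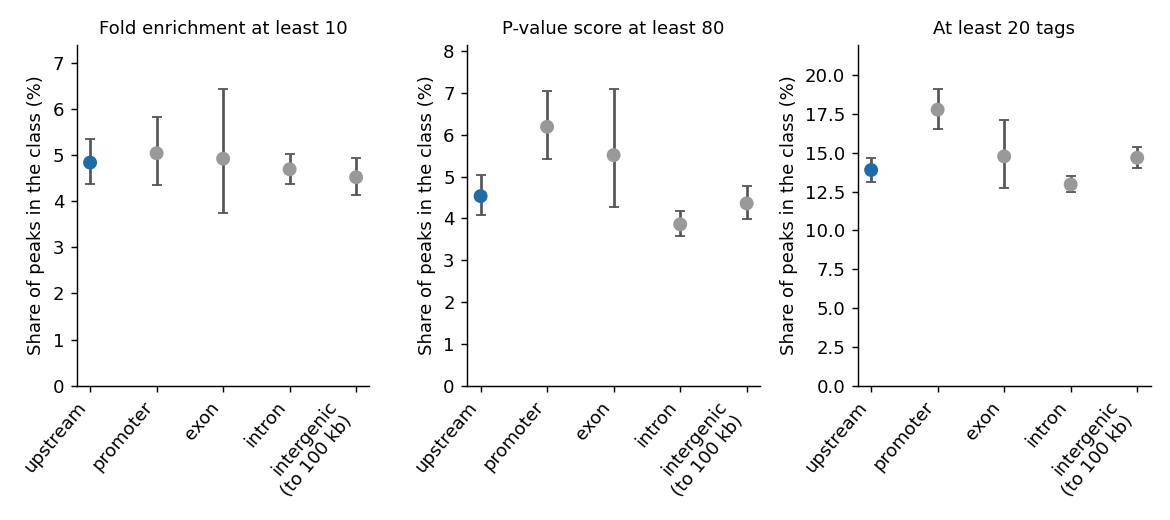
Share of the peaks of each class, in percent, that reached a fold enrichment of at least 10, a p-value score of at least 80, or at least 20 tags. Points are shares and bars Wilson 95% intervals; the upstream class, in blue, overlaps promoters at the first limit (4.84% and 5.04%) and lies below them at the third (13.9% and 17.8%).

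Most upstream peaks were small. The median was 14 tags, with quartiles of 12 and 17 and a lowest value of 11, and the median length was 593 bp. The fold enrichment had a median of 7.35 and ran from 2.81 to 15.84, in steps: 1012 peaks (13.4%) share the value 7.35 and 949 share 6.54. Within the distance window, a fold enrichment of 10 was reached by 4.69% (3.97% to 5.54%) at 2 to 8 kb, 5.43% (4.60% to 6.39%) at 8 to 14 kb and 4.39% (3.63% to 5.31%) at 14 to 20 kb, with overlapping intervals. A fold enrichment of 12 was reached by 0.97% (0.66% to 1.40%), 0.82% (0.53% to 1.26%) and 0.43% (0.24% to 0.80%) in the same order, from 27, 20 and 10 peaks. Peaks inside another gene reached a fold enrichment of 10 in 4.95% and the others in 4.80%, a difference of 0.14 points (-0.95 to 1.37).

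The 10 highest fold enrichments were found at peaks of 332 to 938 bp with 17 to 30 tags. The first was 14.4 kb before ZGPAT, a zinc finger repressor gene, and is also listed for TNFRSF6B, a decoy receptor for Fas ligand (chr20:62324640-62325315). It held 30 tags (exact Poisson 95% interval 20.2 to 42.8) at a fold enrichment of 15.84, and lies inside RTEL1, a DNA helicase gene. A fold enrichment of 14.70 was shared by the peaks of PRXL2C, a peroxiredoxin-like gene (22 tags, 4.55 kb, chr9:99421902-99422405), MIR6511B1 (27 tags, 5.56 kb, chr16:2161916-2162716), SLC25A42, the mitochondrial coenzyme A carrier (18 tags, 6.92 kb, chr19:19167700-19168070), and ZNF784, a zinc finger gene (18 tags, 5.08 kb, chr19:56140804-56141213). The remaining peaks of the first 10, each at 13.89, were those of GTF2IRD1, a TFII-I family factor, NTAN1, an asparagine amidase of the N-degron pathway, HROB, a homologous recombination factor, TOX3, a high-mobility-group box factor, and the noncoding LOC101927709. The Poisson intervals of their tags overlap. These intervals do not measure the error of the fold enrichment, which has none of its own, so the order within the 10 is unresolved.

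The smallest p-values marked other peaks, and 0 of the 10 peaks with the highest fold enrichment were among the 10 with the smallest p-value or the 10 with the most tags. FAM230F, a noncoding gene of a family with several copies on chromosome 22, led by p-value with a score of 818.75, 732 tags and a fold enrichment of 9.39, 3.51 kb before its start (chr22:18717433-18718405). ANKRD30BL followed with 998 tags at 10.4 kb and a fold enrichment of 6.95, and LOC105369266 with 387 tags at 7.51 kb and a fold enrichment of 4.61. The most tags, 1328, lay 2.67 kb before MIR9901 at a fold enrichment of 4.11 (chr16:33962121-33964633). Also among the first 10 by tags were LOC646652 with 453 tags, FANK1 with 429, CYKILR with 278 and a second ANKRD30BL peak with 587. Among the first 10 by p-value, MIR6769A (41 tags, fold enrichment 12.25, inside the ubiquitin ligase gene MGRN1) and KHNYN, a cofactor of the antiviral protein ZAP (36 tags, fold enrichment 9.80), were the 2 whose inferred background was not raised over 3 times. The remaining 8 had an inferred background of over 3 times the genome-wide value, as had 10 of 10 by tags and 0 of 10 by fold enrichment. It was 76.4 times that value at MIR9901, 56.7 at FAM230F, and 48.7 and 45.7 at the ANKRD30BL peaks with 998 and 587 tags. Reads of FAM230F could belong to other copies of its family, so its tags are uncertain. The part of the raised background in the tags of the other peaks was not tested.

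The inferred background of a peak is the Poisson mean at which exceeding its listed tags has its listed p-value, per kb of length. In 4345 upstream peaks (57.6%, 56.5% to 58.7%) it lay within 1% of the most frequent value, 5.94 tags per kb, and in 40 (0.53%, 0.39% to 0.72%) it was over 3 times that value. Promoter peaks were over 3 times it more often, in 1.36% (1.02% to 1.80%). Of the 40 upstream peaks, 26 fell in a single segment of chromosome 1 from 39.9 to 44.2 Mb, whose borders were chosen after the values were seen.

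In this segment the 28 upstream peaks had a median length of 3425 bp and a median of 112.5 tags, against 635 bp and 16 tags in the 837 upstream peaks on the rest of the chromosome. Their median fold enrichment was 4.005 against 6.81, so the tags were high and the listed fold enrichment low. The inferred background was 3.42 to 4.52 times the genome-wide value in 26 of them. In the Mb before 39.9 Mb the median over upstream peaks was 1.14, from 2 peaks only, and that over all 13 peaks was 1.00. In the Mb from 43.9 Mb, which crosses the end of the segment, the median was 1.20 over 12 upstream peaks and 1.33 over all 36 peaks. The peaks over 3 kb long numbered 22 in the whole class, and 17 of them were in the segment. The longest, 8203 bp with 290 tags, lay 11.5 kb before EDN2, which encodes the vasoconstrictor endothelin 2 (chr1:41957750-41965952). MIR6735 had 297 tags over 7836 bp, OXCT2P1, a pseudogene, had 242 over 6263 bp, and FOXO6, a forkhead factor gene, had 196 over 4774 bp. Long peaks also lay before PABPC4, a poly(A)-binding protein gene, HEYL, a Notch-responsive repressor gene, BMP8B, GUCA2B, which encodes uroguanylin, RIMKLA and KDM4A, a histone demethylase gene. The 2 upstream peaks of the segment whose background was not over 3 times the genome-wide value were short ones before TIE1, a receptor tyrosine kinase gene (603 bp, 22 tags, fold enrichment 10.69, background 1.146 times), and TMEM125 (438 bp, 12 tags, fold enrichment 5.56, background 1.323 times). The tags and lengths of these peaks move with the raised background, whose part in the peak calls was not tested.

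**Figure D3:**
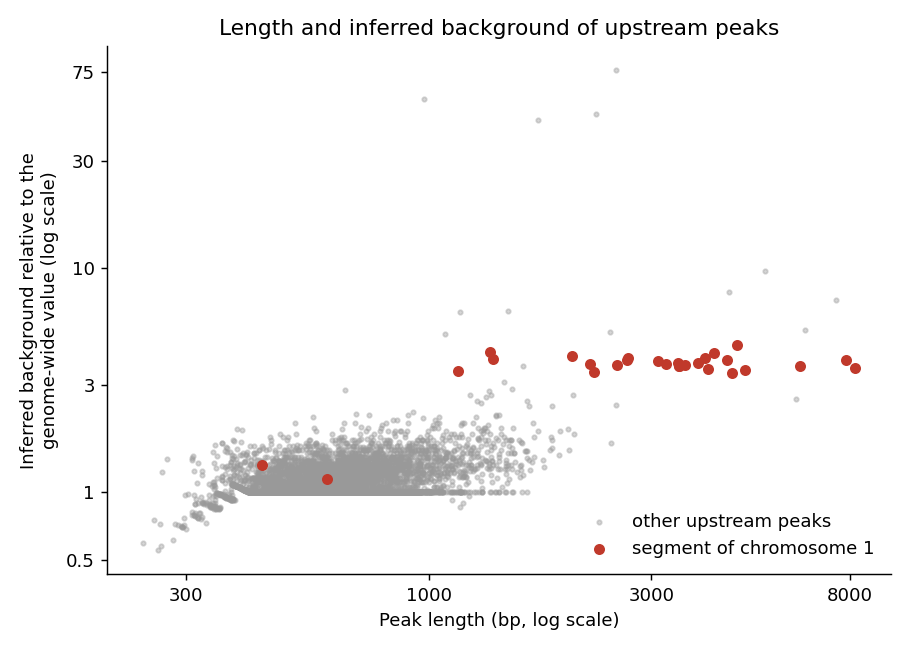
Inferred background of each of the 7546 upstream peaks relative to the genome-wide value (vertical, log scale) against peak length in bp (horizontal, log scale). The peaks of the chromosome 1 segment, in red, lie between 3.42 and 4.52 times the genome-wide value in 26 of 28 cases, over lengths up to 8203 bp.

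The upstream share of peaks was higher on chromosomes with more genes per Mb. It was 30.2% (27.9% to 32.6%) on chromosome 19, 24.6% (22.4% to 27.0%) on chromosome 17, 23.1% (20.6% to 25.7%) on chromosome 22 and 11.3% (9.45% to 13.3%) on chromosome 18, with a median of 15.5% over the 22 autosomes. Across these 22 autosomes the share and the number of protein-coding genes per Mb had a Spearman correlation of 0.89 and a Pearson correlation of 0.92, given as a description over chromosomes of 1 library. Chromosomes with more genes per Mb also have more of their sequence 2 to 20 kb before a start site. The share does not correct for this, and no expected share was computed. On every autosome upstream peaks outnumbered promoter peaks, by a ratio of 1.91 (chromosome 19) to 3.56 (chromosome 13). The upstream window is 18 kb wide, against 2 kb for the promoter class on the same side of the start site. The ratio does not correct for this, and per kb of distance the promoter class was denser. The background differed by chromosome in another way. At the genome-wide value were 2.54% of the 393 upstream peaks on chromosome 6, 4.49% of the 401 on chromosome 8 and 24.6% of the 865 on chromosome 1, against 81.1% on chromosome 17. Relative to the genome-wide value, upstream peaks on chromosome 6 had a median background of 1.31, those on chromosome 8 of 1.29 and those on chromosome 1 of 1.22. On the same chromosomes fewer upstream peaks reached a fold enrichment of 10: 1.78% on chromosome 6, 1.25% on chromosome 8 and 3.12% on chromosome 1. Other peaks of these chromosomes were at the genome-wide value in 3.09%, 1.33% and 25.9%. On chromosome 8 this was below the 4.49% of upstream peaks.

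**Figure D4:**
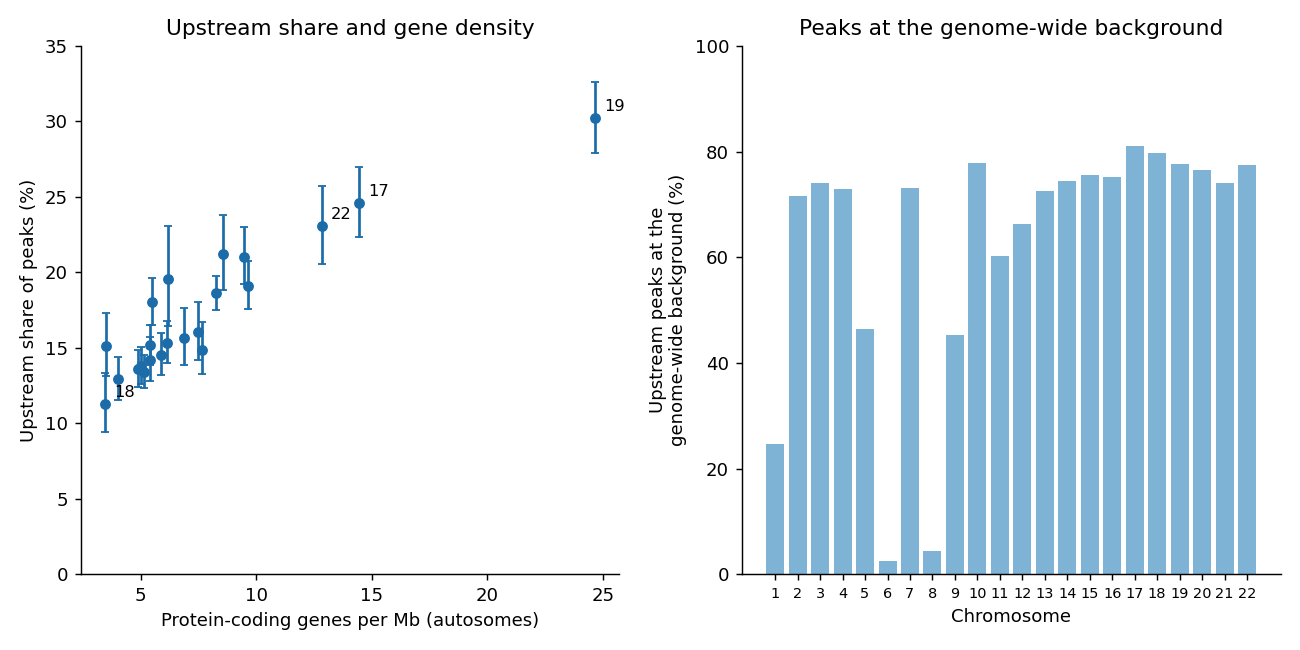
Left, upstream share of peaks in percent (vertical; bars are Wilson 95% intervals) against protein-coding genes per Mb (horizontal) for the 22 autosomes, with chromosome 19 highest at 30.2% and chromosome 18 lowest at 11.3%. Right, share of upstream peaks at the genome-wide background in percent for each autosome, where chromosomes 6 (2.54%) and 8 (4.49%) are lowest.

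Upstream peaks were assigned to 6482 genes. Of the 20056 protein-coding genes of the reference table, 4560 had an upstream peak, which is 22.7%. Of these 3493 had 1 such peak, 836 had 2 and 178 had 3. Genes with an upstream peak had other peaks more often than the remaining protein-coding genes did. A promoter peak was listed for 1023 of the 4560 (22.4%, 21.2% to 23.7%) and for 10.7% of the others, a difference of 11.8 points (10.5 to 13.1), and an intron peak for 40.6% against 23.6%. For 1355 genes (29.7%) the upstream class was the only one with a peak. Gene length and the number of start sites differ between genes, and their part in this was not tested. Among other gene types, 429 of 1913 microRNA genes (22.4%) and 1190 of 18330 long noncoding RNA genes (6.49%) had an upstream peak. The table is that of GRCh38.p14, and genes missing from the hg19 annotation of the list could not be counted. Their number is unknown, so the shares of gene types are not comparable.

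NRARP, which encodes a short ankyrin-repeat protein that is a target and an inhibitor of Notch signaling, had 7 upstream peaks before a single start site at 140196723 on chromosome 9. They lie 3.56, 7.80, 8.70, 11.6, 13.0, 13.8 and 18.7 kb from it. Their tags, in the same order, were 18, 11, 19, 13, 14, 17 and 17, and their fold enrichments 6.81, 6.25, 9.62, 6.49, 6.32, 10.99 and 7.69. All but the nearest lie inside EXD3, the neighbouring gene. The strongest, at 13.8 kb, covers chr9:140210231-140210879.

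RXRA, the nuclear receptor that pairs with LXR to switch on cholesterol efflux genes, had 6 upstream peaks spread over 3 start sites. At the first start they lie 2.33, 9.34 and 10.6 kb upstream with 18, 17 and 25 tags, at the second 8.94 kb with 15 tags, and at the third 11.2 and 13.2 kb with 23 and 16 tags. Fold enrichments were 4.74 to 7.91, and the inferred background 1.06 to 1.55 times the genome-wide value. LINGO1, a membrane protein gene of neurons, also had 6, over 5 start sites, and MCF2L, a guanine nucleotide exchange factor gene, 6 over 3. SEPTIN9, a cytoskeletal GTP-binding protein gene, TOP1MT, the mitochondrial topoisomerase gene, SYNGR1, a synaptic vesicle protein gene, and PDE4D, a cAMP phosphodiesterase gene, had 5 each. They are 4 of 13 protein-coding genes tied at 5 peaks and were taken by their p-value scores, and the others are RGS3, BCL9L, RIMS1, PHACTR3, ATP2B2, NHERF4, BAIAP2, PCBP3 and TIAM2. The highest fold enrichments of the 4 were 9.40 at TOP1MT and 11.44 at SEPTIN9, SYNGR1 and PDE4D. Genes with several start sites have more sequence in the window, which the number of peaks does not correct for.

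MIR8071-1 and MIR8071-2 were listed with the same 7 peaks, because both names stand at both start sites, 106087452 and 106106504 on chromosome 14. They ranged from 13 to 32 tags and from 4.76 to 8.45 in fold enrichment. Such doubled entries, with several genes at 1 position, concerned 51 upstream peaks (0.68%). The copies of MIR6859 are another case: MIR6859-1, MIR6859-2, MIR6859-3 and MIR6859-4 were listed with the same 3 peaks on chromosome 16, with 21, 14 and 13 tags. In all, 538 upstream peaks were listed for microRNA genes, and 27 of them (5.02%, 3.47% to 7.20%) reached a fold enrichment of 10. The interval includes the 4.84% of the whole class.

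A peak can be upstream of more than 1 gene. This held for 732 upstream peaks (9.70%, 9.05% to 10.4%), and 423 (5.61%) lay before start sites on both strands, with a median of 20738 bp between these starts. Both genes code for protein at 259 of the 423. The highest fold enrichments here were 12.25, between YJEFN3 and TSSK6 on chromosome 19 (18 tags) and between NYAP1 and SPACDR on chromosome 7 (16 tags). A fold enrichment of 10 was reached by 24 of the 423 (5.67%, 3.84% to 8.30%), whose interval includes the 4.84% of the whole class.

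In the pathway that the study addressed, upstream peaks were listed for PAX8 itself only. The 2 PAX8 peaks lie 12.1 kb before its start with 14 tags and a fold enrichment of 7.35 (chr2:114048285-114048923), and 15.03 kb before it with 14 tags and a fold enrichment of 8.17 (chr2:114051274-114051782). Both had the genome-wide background, and each tag count has an exact Poisson 95% interval of 7.65 to 23.5. The second stood above 66.5% of upstream peaks by fold enrichment and above 82.2% by p-value score, the first above 45.8% and 54.4%. PAX8 also had 2 intergenic peaks. ABCA1, the cholesterol efflux transporter, had 0 upstream peaks and 1 intergenic peak. The paper, too, describes its ABCA1 site as intergenic, and reports PAX-8 enrichment there by ChIP-qPCR. ELAVL1, an RNA-binding protein gene, had 1 intron peak, and ALKBH5, the m6A demethylase, had no peak listed.

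Upstream peaks were found for 74 of the 295 different genes on 13 lists drawn up for this tissue and treatment (25.1%, 20.5% to 30.3%), where 22.7% of all protein-coding genes had one. The highest shares were 4 of 9 in the PAX family (44.4%) and 8 of 22 each in the myeloid transcription factors and the myeloid surface and effector genes (36.4%). The lowest were 2 of 25 in genes silent in macrophages (8.00%) and 3 of 25 in inflammatory genes (12.0%). Each of the 13 intervals includes 22.7%, so no list stood apart by its count. The peaks of the lists were of usual size. The 109 different peaks had a median of 15 tags and a median fold enrichment of 7.35, against 14 and 7.35 in the whole class. A fold enrichment of 10 was reached by 6 of them (5.50%, 2.55% to 11.5%), against 4.84% of the whole class. Of the 109, 12 lie inside another gene.

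**Figure D5:**
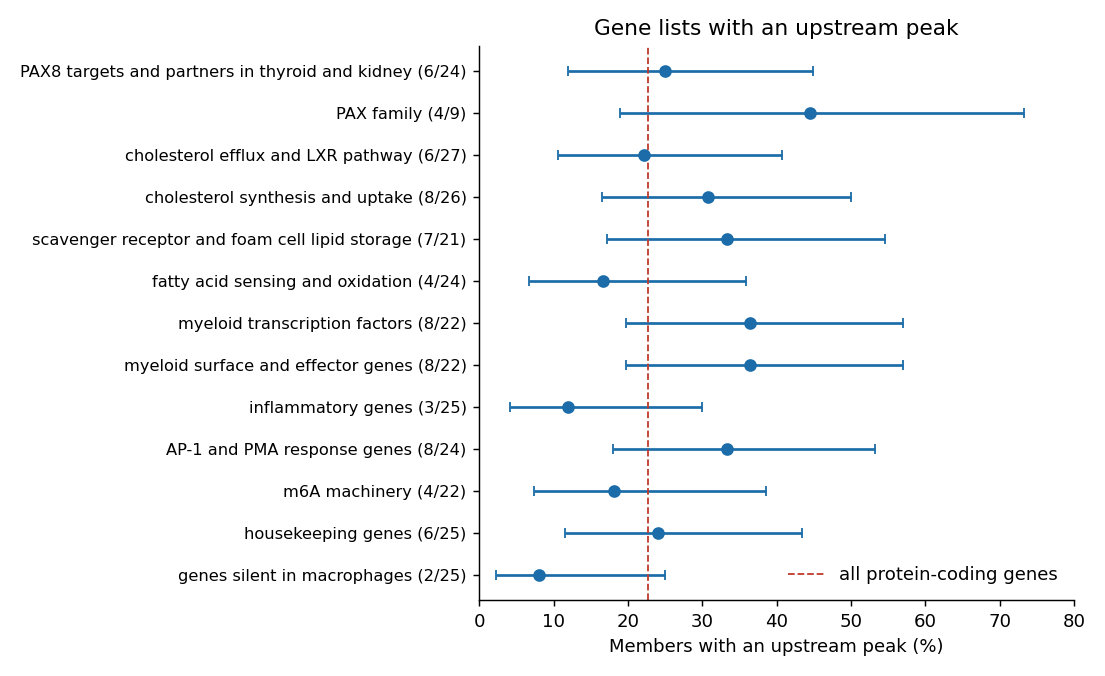
Members of each gene list with an upstream peak, in percent of the list (points; bars are Wilson 95% intervals; counts in parentheses). The dashed line is the 22.7% over all protein-coding genes, which every interval includes.

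The cholesterol lists had shares whose intervals include the 22.7% of all protein-coding genes. In the efflux and LXR list, 6 of 27 genes (22.2%) had an upstream peak, led by SCARB1, the HDL receptor (12 tags, fold enrichment 9.80, 12.6 kb), and ABCG4, a transporter of the ABCG1 family (28 and 14 tags, fold enrichments 9.22 and 5.09, both inside HINFP). LIPA, the lysosomal acid lipase that frees cholesterol from lipoproteins, had 2 peaks with 11 and 13 tags and fold enrichments of 8.17 and 7.35. RXRA is described above, and NPC1, which exports cholesterol from lysosomes, and CH25H, which makes 25-hydroxycholesterol, had 1 peak each at 6.54. In the synthesis and uptake list, 8 of 26 genes (30.8%) had one. They include SREBF2, which encodes a transcription factor of sterol synthesis (12 tags, fold enrichment 6.54, 9.94 kb), and SCAP and INSIG1, which control its release (6.54 each). Among the enzymes, FDFT1 had 8.28, SC5D 6.08 and MVK 6.21 and 5.72. The MVK peaks lie inside MMAB, its neighbour on the other strand.

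Of the scavenger receptor and lipid storage genes, 7 of 21 (33.3%, 17.2% to 54.6%) had an upstream peak, against 22.7% of all protein-coding genes. MARCO, a class A scavenger receptor, had the strongest with 20 tags and a fold enrichment of 8.85 at 6.30 kb. MSR1, the main receptor of this class for modified LDL, had 14 tags at 5.83, SCARA5 had 18 and 17 tags at 8.01 and 6.36, and COLEC12 had 12 tags at 7.35. STAB1 had 22 tags at 6.43, and the lipid chaperones FABP4 and FABP5 had 3 peaks between them, at 5.83, 5.44 and 5.29. In fatty acid sensing and oxidation, 4 of 24 genes (16.7%, 6.68% to 35.9%) had one, against the same 22.7%. Among them was CPT2, a mitochondrial carnitine acyltransferase. Its peaks with 20 tags at 15.2 kb and 17 tags at 17.8 kb had fold enrichments of 10.27 and 6.79. ACADM and HADHA had a value of 6.54 each.

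Among the myeloid transcription factors, SPI1, which encodes PU.1, and NR4A1, an orphan nuclear receptor, shared the highest fold enrichment, 11.44. The SPI1 peak held 15 tags at 14.4 kb (chr11:47414248-47414805) and also lies 7994 bp before MIR4487 on the other strand. NR4A1 had a second peak of 16 tags at 10.62 and has a promoter peak. EGR1 (8.99 and 7.35), IRF5 (8.17), KLF2 (8.17), GFI1 (7.67 and 5.88), MYB (7.09) and CEBPD (4.96) complete the 8 of 22. The interval of this share, 19.7% to 57.0%, includes the 22.7% of all protein-coding genes. Among surface and effector genes, AIF1, the macrophage marker IBA1, had 23 and 11 tags at fold enrichments of 10.63 and 7.77, and CSF1R, the M-CSF receptor, had 15 and 13 tags at 9.80 and 8.99. CSF3R (8.99), ITGAX (8.17), ITGB2 (8.17 and 6.54), TREM2 (7.67 and 4.22), CD33 (6.54) and FCGR1A (4.80) make up the remaining members with a peak.

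Genes of the PMA response had upstream peaks in 8 of 24 cases. MAFF, a small MAF factor, had 3, with 15, 15 and 14 tags at 9.80, 8.99 and 7.35. FOS had 14 tags at 8.99, MMP9, a matrix protease, had 11 and 17 tags at 8.99 and 7.35, and the kinase genes PRKCB, PRKCD and PRKCA had 8.99, 7.35 and 4.90. DUSP1, a MAP kinase phosphatase gene, had 7.35 and 6.54, and FOSL2 had 5.72. The 3 inflammatory genes were NFKBIA, the inhibitor of NF-kB (8.99), CCL2, a monocyte chemokine (7.70), and SOD2, the mitochondrial superoxide dismutase (6.85 and 5.37). The stronger SOD2 peak, with 35 tags, is the same as 1 of the 2 listed for WTAP, a subunit of the m6A methyltransferase, which lies on the opposite strand. The other m6A genes were YTHDF3 (9.50, 6.24 and 6.00) and YTHDC1 (8.99), which are readers, and FTO, a demethylase (7.35).

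The PAX8 target list gave 6 of 24 genes. GLIS3 had 23 tags at 6.94, RET 15 tags at 6.54, EYA1 16 and 23 tags at 6.76 and 4.22, TERT 30 tags at 6.06 and BCL2 11 tags at 7.35. None reached a fold enrichment of 8. The PAX family peaks were those of PAX8 (above), PAX7 and PAX9, with 12 and 11 tags at 6.54 and 7.35, and PAX1, with 46 tags over 1984 bp at 4.54. The control lists had peaks of the same kind. Housekeeping genes had 6 of 25 (24.0%). Among them were ACTB (14 tags, 7.35), PPIA (11, 16 and 12 tags, 8.99, 6.54 and 5.72) and HSP90AB1 (33, 27 and 12 tags, 8.23, 7.45 and 6.27). The others were PKM (8.99), FTH1 (7.35 and 7.03) and HSPA8 (6.76). Of the genes silent in macrophages, CDX2, an intestinal factor, had 15 tags at 8.17.

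A minority of upstream peaks had another peak nearby. The nearest other peak was a median of 11538 bp away, and for 965 (12.8%, 12.1% to 13.6%) it was within 2 kb. This share was 15.7% (14.5% to 16.9%) for promoter peaks, 9.96% (9.50% to 10.4%) for intron peaks and 10.36% (9.80% to 10.96%) for intergenic peaks within 100 kb. Within 500 bp it was 3.53% (3.13% to 3.97%) for upstream peaks.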

How the data were processed

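ChIP-Seq of PAX-8 was performed by the authors in C18-3OH-treated foam cells, as 1 ChIP library set against 1 Input library. Per the file headers, the deposited values of a peak are a count of tags, a fold enrichment (a ratio), a score that is minus 10 times the log10 p-value, and an FDR in percent. The submitters' processing notes name FastQC and the build hg19. Not given in the sources used here are the aligner, the treatment of duplicates, the peak caller, the definition of fold enrichment and the depth of each library.

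The list has 103443 lines, 1 for each peak and transcript. Lines with the same position were joined to 1 peak, and no peak had lines of different classes. Gene names and types were taken from the RefSeq table of GRCh38.p14: of 6482 genes with an upstream peak, 6434 matched by transcript accession, 28 by symbol, 12 by synonym and 8 by none. The background of each peak was inferred as the Poisson mean at which exceeding the listed tag count has the listed p-value, with a logarithm to base 10. It was divided by the peak length and by the most frequent value over the list. Shares have Wilson intervals, differences of shares Newcombe intervals, counts exact Poisson intervals and ratios of counts exact conditional intervals, all at 95% and for counting error only. No p-value was computed, since there is no replicate.

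The class, the gene lists and the rules for naming genes were chosen with earlier results of these data known. The genes named were those of the first 10 upstream peaks ranked on fold enrichment, p-value, tags and distance at either end of the window, the 10 genes with the most upstream peaks (ties taken by p-value score), up to 6 members of each gene list, and PAX8, ABCA1, ALKBH5 and ELAVL1. Some items that these rules name are not reported here. Other genes were named after their values were seen. Alternatives were other limits, distance windows and gene assignments, peaks within 500 bp merged and sets of chromosomes. The solving step was tested on simulated data. Calculations ran in Python 3.11.15 with pandas 2.3.3, scipy 1.17.1 and numpy 2.4.6, and plots in matplotlib 3.10.9.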

Additional observations from a re-analysis of the deposited data

How the results depend on the processing

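Of 43 main values under alternatives, 30 moved by less than their interval, or by less than 1.5 times for counts. The 30 include alternatives that took the upstream class from any or from every line of a peak. These could not move, since no peak had lines of different classes. The number of upstream peaks fell to 365 and that of protein-coding genes with one to 284 with a limit of 10 on fold enrichment, and list members with one to 31 with a limit of 8. The ratio of near to far peaks was 1.498 when the smallest distance over all lines was used and 1.60 among peaks with a fold enrichment of 10 or more. The difference from promoter peaks was -1.66 points by p-value score and -3.88 by tags, and that from intergenic peaks -0.79 by tags, with an interval of -1.81 to 0.25. The share at the genome-wide background was 60.4% within 5% and 63.9% without chromosomes 6 and 8. The upstream share of chromosome 19 was 32.9% among peaks with a fold enrichment of 10 or more. Upstream peaks with another within 2 kb were 11.1% when other classes were not counted and 5.26% when both had to reach a fold enrichment of 8. Of 39 list counts under alternatives, 19 moved by over 1.5 times. Leaving out the chromosome 1 segment, the peaks with several genes at 1 position or the peaks with several genes, all chosen after seeing the data, moved none of the values tried. No paired analysis was possible because only 1 ChIP library and 1 Input library were analysed here. No replicate could be left out.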
